A study of Mus musculus with 6 samples.

Results

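The 10 genes described here encode the cyclins, the kinase and the kinase inhibitors that act in G1, the phase in which a cell either stays out of division or commits to copying its DNA. They are the D cyclins Ccnd1, Ccnd2 and Ccnd3, the E cyclins Ccne1 and Ccne2, the cyclin D partner Cdk6, and the CDK inhibitors Cdkn1b (p27), Cdkn2a (p16INK4a and p19ARF), Cdkn2c (p18) and Cdkn2d (p19). They were chosen by name, with earlier results of these data known. Each of the 10, among 19937 genes with a probe set of their own, was represented by its probe set with the highest mean over the arrays. Only Cdkn1b had a further probe set. Mouse double-negative (DN) thymocytes, T-cell precursors without CD4 and CD8, were profiled on 6 Affymetrix arrays in 2 groups of 3. The first group is DN thymocytes of Rag2-/- mice, which lack a recombinase for antigen receptor genes and whose thymocytes stop at the DN stage, and the labels call it control. The second, labelled DN-TLX3+ and tumoral, is sorted DN thymocytes from wild-type animals, transduced with TLX3, a homeobox oncogene of T-cell acute lymphoblastic leukaemia. The retroviral vector was pMSCV-GFP-TLX3, and the transduced cells grew for 4 to 5 weeks on irradiated OP9-DL1 stroma, which presents a Notch ligand, with IL-7 and Flt3L. Donor mice were C57Bl/6, aged 4 to 6 weeks. No array of cells given the empty vector was used here, so genotype, virus and culture differ together and cannot be told apart, and it cannot be read from the labels if the Rag2-/- cells were cultured too. Nor do they tell if a group's 3 samples are separate animals or cultures. The p-values then reflect only how far these samples scatter, in part perhaps for technical reasons.

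In G1, D cyclins bind Cdk4 or Cdk6 and phosphorylate the retinoblastoma protein, which releases E2F factors from repression. E2F factors then raise transcription of the E cyclins, which bind Cdk2 and drive entry into S phase. The INK4 inhibitors, p16INK4a, p18 and p19, bind Cdk4 and Cdk6, whereas p27 binds complexes of cyclin and CDK, above all cyclin E with Cdk2. Thymocytes rely on cyclin D3 and Cdk6 for their expansion at the pre-T-cell receptor checkpoint, and loss of the CDKN2A locus is among the commonest lesions of T-cell leukaemia.

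Promoter sequences are shown for the member with the largest rise (Ccne1), for both members that fell (Cdk6 and Cdkn1b) and for both starts of Cdkn2a, since 1 probe set stands for a locus that makes 2 proteins. Each is the 250 bases before a RefSeq transcription start, 5′ to 3′ on the gene's strand, from GRCm38.p6. Capitals mark the letters of a searched motif. The motifs were E2F (TTCCCGC or TTCGCGC or TTGCCGC or TTGGCGC), forkhead (GTAAACA) and E-box (CACGTG), on both strands, and no matches overlapped.
Ccne1, chr7:38107491-38107740, minus strand: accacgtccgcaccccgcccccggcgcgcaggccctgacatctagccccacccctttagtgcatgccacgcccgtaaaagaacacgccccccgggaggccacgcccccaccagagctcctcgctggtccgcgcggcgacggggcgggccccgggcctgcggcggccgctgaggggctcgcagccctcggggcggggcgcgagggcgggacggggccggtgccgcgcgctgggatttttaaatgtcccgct
Cdk6, chr5:3343643-3343892, plus strand: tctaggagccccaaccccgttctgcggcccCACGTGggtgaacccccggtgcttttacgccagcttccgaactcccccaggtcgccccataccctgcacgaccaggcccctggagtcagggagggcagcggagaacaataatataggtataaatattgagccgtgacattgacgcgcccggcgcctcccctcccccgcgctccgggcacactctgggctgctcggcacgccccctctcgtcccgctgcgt
Cdkn1b, chr6:134920151-134920400, plus strand: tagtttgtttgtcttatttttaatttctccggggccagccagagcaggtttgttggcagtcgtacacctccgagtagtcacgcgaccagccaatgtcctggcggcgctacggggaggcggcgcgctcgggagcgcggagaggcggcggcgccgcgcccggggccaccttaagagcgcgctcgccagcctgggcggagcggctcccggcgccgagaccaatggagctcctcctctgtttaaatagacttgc
Cdkn2a, upstream start (p19ARF), chr4:89294620-89294869, minus strand: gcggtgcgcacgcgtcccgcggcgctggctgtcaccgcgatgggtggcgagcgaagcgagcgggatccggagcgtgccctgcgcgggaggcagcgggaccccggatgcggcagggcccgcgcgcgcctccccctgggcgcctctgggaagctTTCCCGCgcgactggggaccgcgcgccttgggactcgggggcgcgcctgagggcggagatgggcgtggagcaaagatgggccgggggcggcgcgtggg
Cdkn2a, downstream start (p16INK4a), chr4:89282193-89282442, minus strand: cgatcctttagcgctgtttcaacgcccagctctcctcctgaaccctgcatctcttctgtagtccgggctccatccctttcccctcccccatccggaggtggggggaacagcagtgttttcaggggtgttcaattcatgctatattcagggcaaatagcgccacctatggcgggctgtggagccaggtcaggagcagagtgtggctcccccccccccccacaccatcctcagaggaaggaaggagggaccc

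Of the 10 members, 7 had promoter windows in the RefSeq table, 10 windows in all. E2F letters stood in 2 of them, the upstream window of Cdkn2a and 1 of both windows of Cdkn2c, against 7.89% of 32851 windows of the same length. The Cdkn2a match lies 98 to 92 bases before the start. Cdk6 held an E-box 220 to 215 bases before its start (6.02% of all windows hold one), and 1 window of Ccnd3 held forkhead letters (3.17%). The windows of Ccne1 and Cdkn1b held none of these letters, which says only that the letters are not in those bases.

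Facts of the whole series bear on the values as follows. Tlx3 itself was at 5.40, 5.42 and 5.52 in the Rag2-/- arrays and at 7.09, 6.52 and 6.45 in the TLX3 arrays (log2 difference 1.24, adjusted p = 0.00103). Since the sources used here do not name the species of the insert, the array need not detect it. The probe set of Rag2 (log2 difference -0.30, adjusted p = 0.124) did not differ past the threshold, and since its place relative to the deletion is unknown here, it checks nothing. Defining T-lineage genes were present in both groups: none of 14 markers had a group mean under the array medians, which were 6.22 to 6.35 log2 units. Of these 14, 2 rose and 9 fell, with a median of -0.48, and Il2ra (-1.19) and Ptcra (-1.11) were called lower. Of the 3 coreceptor genes of the populations that the sort removes, Cd8b1 was called higher, by 1.52 from a mean of 5.48, under the array medians, while Cd8a (0.12, adjusted p = 0.466) and Cd4 (-0.34, adjusted p = 0.0682) did not pass. Every TLX3 array had a narrower signal range (interquartile range 2.47, 2.85 and 2.75 log2 units) than every Rag2-/- array (3.18, 3.13 and 3.09). Leaving out 1 array does not remove that difference, and its part in the values was not tested. TLX3 replicate 1 stood apart, with the narrowest range (2.47) and the lowest mean correlation with its own group (0.976). Several results that lean on replicate 1 are therefore given with and without it.

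Levels are log2 RMA values, and differences are TLX3 minus Rag2-/- on that scale. A gene rose or fell where the limma p-value, adjusted by Benjamini-Hochberg over 28192 probe sets, was under 0.05, and it was called where the absolute difference was also at least 1. Of the 10 members, 1 was called higher, where 1.44% of all genes were, and 1 was called lower, where 5.07% were. At the adjusted p alone, 3 members rose (Ccne1, Ccne2 and Cdkn2a), where 23% of genes rose, and 2 fell (Cdk6 and Cdkn1b), where 19.4% fell. The other 5 did not pass. The arrays of both groups did not overlap for 6 members, or 6 of 10, against 58.3% of all genes. The number of members that differed is thus near the background. What follows describes which of them moved and by how much. The median difference of the 10 was 0.19, against 0.11 over all genes. In RNA from bulk samples, fewer cells that use a gene and less of its RNA per cell cannot be told apart.

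**Figure D1:**
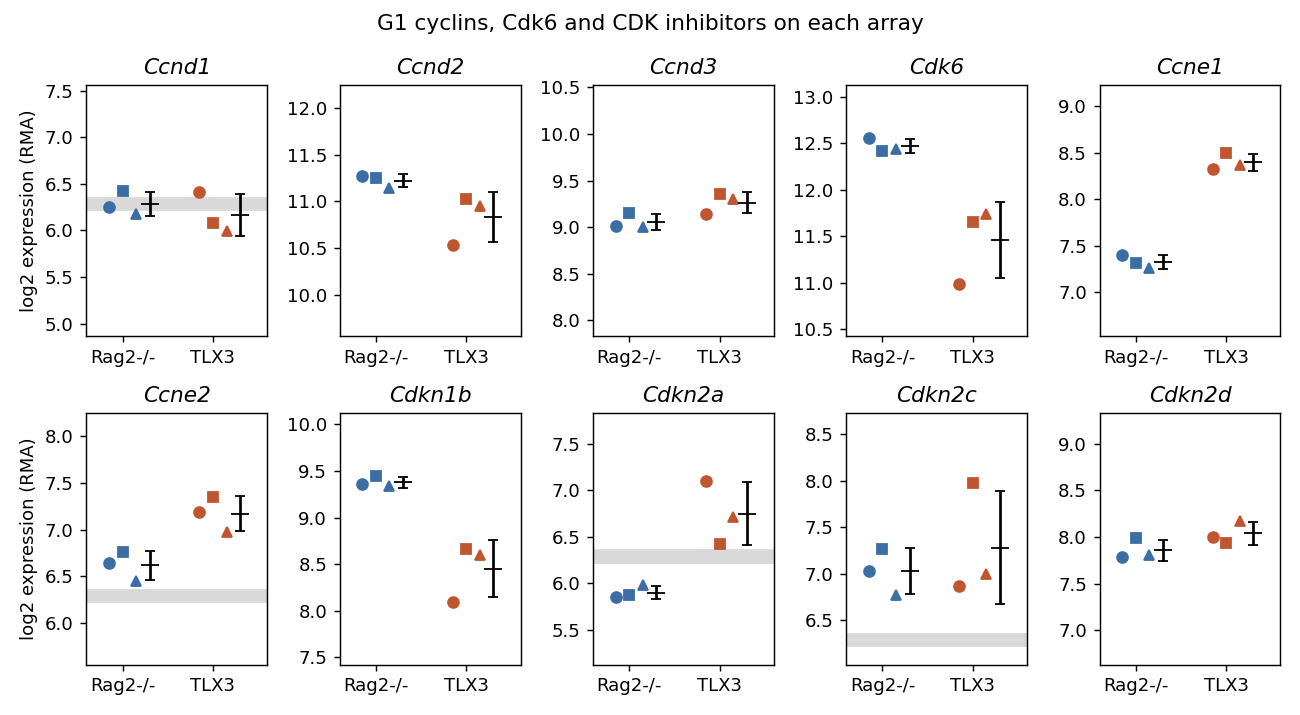
Level of each of the 10 genes (log2 RMA value, panels of equal span) on the 3 Rag2-/- arrays (blue) and the 3 TLX3 arrays (orange). Circles, squares and triangles are replicates 1, 2 and 3, black bars are mean ± SD, and the grey band is the range of array medians. Ccne1 lies wholly higher and Cdk6 and Cdkn1b wholly lower in the TLX3 arrays, with TLX3 replicate 1 the lowest array for both of the latter.

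The D cyclins, which carry growth and cytokine signals into the cycle, did not change past the threshold. Ccnd3, the D cyclin that thymocytes need for expansion, was at 9.02, 9.15 and 9.00 in the Rag2-/- arrays and at 9.14, 9.35 and 9.30 in the TLX3 arrays. The groups overlapped, since TLX3 replicate 1 lay below Rag2-/- replicate 2. The difference was 0.21 (95% CI -0.08 to 0.49, adjusted p = 0.205). Ccnd2, the second D cyclin of lymphocytes, was at 11.27, 11.25 and 11.14 against 10.53, 11.02 and 10.95. All 3 TLX3 arrays lay below all 3 Rag2-/- arrays, and TLX3 replicate 1 lay well below the other two. Its difference of -0.39 (95% CI -0.73 to -0.04, adjusted p = 0.0696) missed the threshold and was -0.23 without TLX3 replicate 1. Ccnd1, the D cyclin of most non-blood tissues, was at 6.25, 6.43 and 6.18 against 6.42, 6.08 and 6.00. These values lie at the array medians and overlap, with a difference of -0.12 (95% CI -0.46 to 0.21, adjusted p = 0.52). The intervals do not show any of the D cyclins to be equal between the groups.

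Cdk6, the kinase partner of the D cyclins, fell by about as much as any member. It was at 12.56, 12.42 and 12.44 in the Rag2-/- arrays and at 10.99, 11.66 and 11.73 in the TLX3 arrays. The groups did not overlap, but the TLX3 arrays also differed among themselves, with replicate 1 lowest. The mean was 12.47 ± 0.07 against 11.46 ± 0.41 (SD, n = 3 in each group), a difference of -1.01 ± 0.19 (SE) or 2.01-fold, with an adjusted p of 0.00391. It was called by a narrow margin: the difference was -0.78 without TLX3 replicate 1 and -0.97 without Rag2-/- replicate 1, where the adjusted p still passed (0.00169 and 0.0197) and the minimum difference did not. Of all genes, 4.94% had a difference as low or lower. Long genes were lower in the TLX3 arrays: among genes above the median level, the longest quintile (60995 bases and more) had a median difference of -0.38. Cdk6 spans 190005 bases, and Ccnd3 (94639 bases, difference 0.21) is in the same quintile. The part of gene length in the values of Cdk6 and Ccnd3 was not tested. Cdk4, the other kinase of this step, was at 11.50, 11.53 and 11.45 against 11.13, 11.56 and 11.32, overlapping, with a difference of -0.16 (95% CI -0.48 to 0.16, adjusted p = 0.377). Whether the change of Cdk6 differs from that of Cdk4 was not tested.

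Ccne1, the cyclin E that activates Cdk2 at the start of S phase, had the largest rise among the members. It was at 7.40, 7.31 and 7.26 in the Rag2-/- arrays and at 8.32, 8.50 and 8.37 in the TLX3 arrays. Every TLX3 array lay above every Rag2-/- array by a gap several times the spread within either group, and replicate 1 did not stand out. The mean rose from 7.32 ± 0.07 to 8.40 ± 0.09 (SD, n = 3), a difference of 1.07 ± 0.12 (SE), or 2.1-fold, with an adjusted p of 0.000404. Its difference lay at the 99th percentile of all genes, a description of rank. It was 1.11 without TLX3 replicate 1 and was called in each of 15 alternative analyses that gave single-gene values. Limma treat, which tests for a difference beyond the minimum itself, did not call it. That test called none of the 10 members (none at its unadjusted p either), where it called 0.0351% of all genes higher and 0.612% lower. Ccne2, the paralog of Ccne1, was at 6.64, 6.76 and 6.45 against 7.19, 7.35 and 6.97. The groups did not overlap here either, though the gap was narrower. Its difference was 0.56 ± 0.15 (SE), adjusted p = 0.0149, or 0.55 without TLX3 replicate 1. The adjusted p was 0.0506 without Rag2-/- replicate 1 (difference 0.57) and 0.0672 without Rag2-/- replicate 3 (difference 0.47), which ends its rise in those cases. Cdk2, the kinase of both E cyclins, was at 9.21, 9.11 and 9.08 against 9.19, 9.69 and 9.44, with a difference of 0.31 (95% CI -0.03 to 0.65, adjusted p = 0.127).

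**Figure D2:**
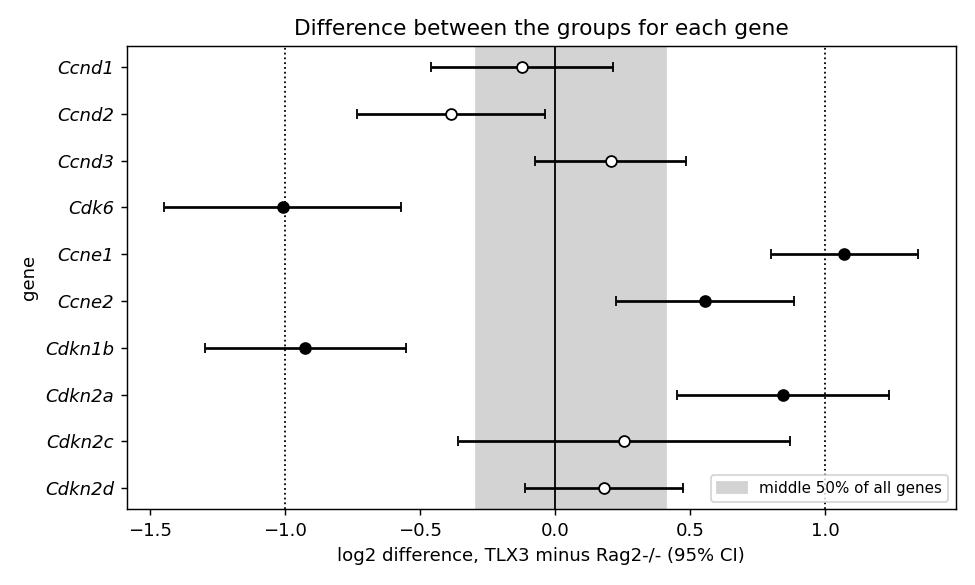
Difference of each gene (TLX3 minus Rag2-/-, log2 units, horizontal axis) with its 95% confidence interval from limma. Filled points have an adjusted p under 0.05, dotted lines mark a difference of 1 in either direction, and the grey band holds the middle 50% of all genes. The intervals of Ccne1, Ccne2 and Cdkn2a lie above 0 and those of Cdk6, Cdkn1b and Ccnd2 below it, the last with an adjusted p of 0.0696.

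The CDK inhibitors did not move as a class: 1 fell, 1 rose and 2 did not pass. Cdkn1b, the p27 inhibitor of cyclin E with Cdk2 that keeps lymphocytes quiescent, was at 9.36, 9.44 and 9.34 in the Rag2-/- arrays and at 8.10, 8.66 and 8.60 in the TLX3 arrays. The groups were well apart, with TLX3 replicate 1 lowest again. The mean fell from 9.38 ± 0.06 to 8.45 ± 0.31 (SD, n = 3), a difference of -0.93 ± 0.16 (SE), or 1.9-fold, with an adjusted p of 0.00277, short of the minimum difference. It was -0.75 without TLX3 replicate 1 (adjusted p = 0.00174). A second, dimmer probe set of Cdkn1b was at 7.54, 7.46 and 7.13 against 6.76, 7.59 and 6.96. That probe set overlapped between the groups (difference -0.27, 95% CI -0.76 to 0.21, adjusted p = 0.321), so the fall rests on the brighter one, and the mean of both gave -0.60 (adjusted p = 0.0245). With 5125 bases, Cdkn1b is in the shortest quintile of genes above the median level, whose median difference was 0.13. Whether gene length has a part in the value of Cdkn1b was not tested.

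Cdkn2a, whose products hold back Cdk4 and Cdk6 (p16INK4a) and stabilise p53 (p19ARF), rose from a level under the array medians. It was at 5.85, 5.87 and 5.98 in the Rag2-/- arrays and at 7.10, 6.42 and 6.72 in the TLX3 arrays. All TLX3 arrays were higher, and replicate 1, the lowest array for Cdk6 and Cdkn1b, was the highest here. The difference was 0.84 ± 0.17 (SE), adjusted p = 0.00521, and 0.67 without TLX3 replicate 1 (adjusted p = 0.00527). No fold is given, because a mean of 5.90 may be background, and a single probe set cannot tell p16INK4a from p19ARF. Cdkn2c, the p18 inhibitor, was at 7.03, 7.27 and 6.77 against 6.87, 7.97 and 7.001. Only TLX3 replicate 2 lay above the Rag2-/- arrays, and the SD of the TLX3 group, 0.60, was the widest of the 10 members. Its difference of 0.26 (95% CI -0.36 to 0.87, adjusted p = 0.462) turned to -0.09 without that array. Cdkn2d, the p19 inhibitor of the same family, was at 7.78, 7.98 and 7.80 against 8.0003, 7.94 and 8.18. Those values overlap, with a difference of 0.18 (95% CI -0.11 to 0.47, adjusted p = 0.275).

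The exact two-sided permutation test over 3 against 3 arrays cannot go below p = 0.1, which it gave for each of the 6 members whose arrays did not overlap. Cdkn2a, Cdkn1b, Cdk6 and Ccne1 thus rest on the spread that limma pools over probe sets. Dim and bright genes did not share a common shift: the median difference was 0.33 in the dimmest quintile of genes, 0.09 in the middle quintile and -0.17 in the brightest. Within its own quintile of level, Ccne1 stood at the 99th percentile of differences, Cdkn2a at the 95.9th, Cdkn1b at the 8.22nd and Cdk6 at the 6.57th, again as a description.

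**Figure D3:**
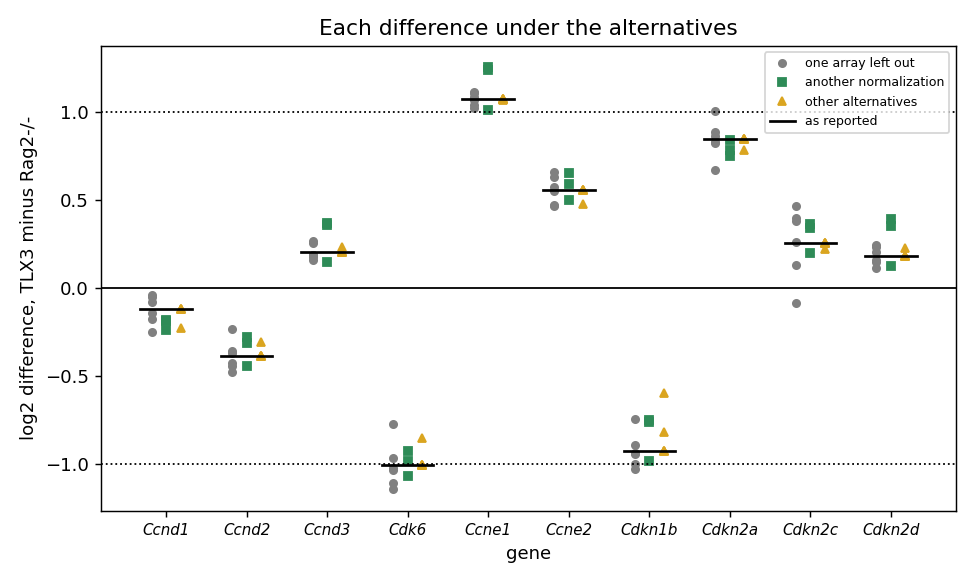
Difference of each gene (TLX3 minus Rag2-/-, log2 units, vertical axis) as reported (black line), with 1 array left out (grey circles), after quantile normalization again, equal array medians or cyclic loess (green squares), and under the other alternatives (yellow triangles). Dotted lines mark a difference of 1. Ccne1 stays between 1.01 and 1.25, Cdk6 runs from -1.15 to -0.78 across the line at -1, and Cdkn2c alone changes sign, to -0.09.

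Around these members, other genes of the same pathway were counted in lists chosen for their roles, also with earlier results of these data known. Among 15 measured kinases, activators and further CDK inhibitors, none was called by limma, 4 rose and 3 fell (4 and 4 at an unadjusted p under 0.05), with a median difference of -0.13. Cdkn1c (p57) and Cdkn2b (p15), both CDK inhibitors and both named after their values were seen, were among the rises. Cdkn1c was at 6.02, 6.19 and 6.01 against 6.91, 6.80 and 6.69 (difference 0.73, adjusted p = 0.00245). Cdkn2b, the INK4 gene next to Cdkn2a, was at 6.36, 6.39 and 6.37 against 7.05, 6.99 and 6.57. Both sit near the array medians, as Cdkn2a does. The rise of Cdkn2b (0.50, adjusted p = 0.0262) did not pass without any 1 of the Rag2-/- arrays or without TLX3 replicate 2 (0.44, adjusted p = 0.0635).

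Of 19 pocket proteins, E2F factors and their partners, 1 was called higher, 1 lower, 7 rose in all and 2 fell, with a median of 0.13. E2f2, an activating E2F, was at 8.04, 7.93 and 7.87 against 8.80, 9.18 and 8.98. It was higher in 3 of 3 TLX3 arrays, with a difference of 1.04 ± 0.14 (SE) and an adjusted p of 0.000792, and was not called without TLX3 replicate 2 (0.94) or with equal array medians (0.98). E2f1 rose by 0.57 (adjusted p = 0.0214), which did not pass without Rag2-/- replicate 1 (0.44, adjusted p = 0.0969), TLX3 replicate 2 (0.49, adjusted p = 0.0557) or TLX3 replicate 3 (0.52, adjusted p = 0.0559). The other rises, named after their values were seen, were E2f8 (0.88, adjusted p = 0.000994), E2f4 (0.67, 0.00311), Tfdp1 (0.65, 0.0101), E2f7 (0.55, 0.00754) and Rbbp4 (0.51, 0.0138). A second probe set of Tfdp1 gave 0.36 (adjusted p = 0.0436). In the other direction, Tfdp2, like Tfdp1 a dimerization partner of E2F, was at 8.85, 8.60 and 8.89 against 7.57, 7.77 and 7.40. Its difference was -1.20 (adjusted p = 0.000529), or -0.998 and not called after quantile normalization again. Rb1, the retinoblastoma protein that restrains E2F factors, was at 8.21, 8.07 and 8.11 against 7.40, 7.46 and 7.44. It fell by 0.70 on the log2 scale (SE 0.12, adjusted p = 0.00206), with no overlap between the groups. Rb1 (133094 bases) and Tfdp2 (127401 bases) are, like Cdk6, in the longest quintile of genes, whose median difference was -0.38. The part of gene length in their values was not tested.

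Among 18 genes for the turnover of G1 cyclins and CDK inhibitors, 1 was called lower, 1 rose and 6 fell, with a median of -0.26. Most encode parts of ubiquitin ligases, but not all, as with the kinase gene Gsk3b, which was among the falls (-0.49). Fbxw7, the substrate receptor for cyclin E, was at 7.86, 7.78 and 7.76 against 6.08, 6.997 and 6.60. With 164209 bases, Fbxw7 is in the longest quintile of genes too, and the part of gene length in its value was not tested. Its difference was -1.25 ± 0.21 (SE, adjusted p = 0.00218) and -1.01 without TLX3 replicate 1. A second probe set gave 0.32 (adjusted p = 0.168), but its means of 4.40 and 4.72 lay under the array medians and may be background. The transcripts of cyclin E1 and of its ligase receptor thus moved in opposite directions on their brightest probe sets. Cks1b, a cofactor for the degradation of p27, was at 8.47, 8.52 and 8.18 against 8.94, 9.46 and 9.13, a rise of 0.79 (adjusted p = 0.00606). Its partner Skp2, the receptor that binds p27, overlapped between the groups (difference 0.09, 95% CI -0.27 to 0.44, adjusted p = 0.672).

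Of 26 upstream regulators, 1 was called higher, 1 lower, 3 rose and 11 fell, with a median of -0.27. Myc, which drives transcription of G1 cyclins, was at 10.50, 10.52 and 10.24 against 10.71, 11.38 and 11.08, a rise of 0.64 (adjusted p = 0.0197) that did not pass without Rag2-/- replicate 3 (0.55, adjusted p = 0.0804). Notch1, known to raise Ccnd3 and Cdk6 in T-cell leukaemia, was at 12.46, 12.30 and 12.44 against 11.37, 12.00 and 11.95. It fell by 0.62 on the log2 scale (adjusted p = 0.0204), not passing without Rag2-/- replicate 1 (-0.59, adjusted p = 0.0725) or Rag2-/- replicate 3 (-0.61, adjusted p = 0.0679), and was -0.42 without TLX3 replicate 1. As with Cdk6, TLX3 replicate 1 was the lowest array. Ptcra, the pre-T-cell receptor chain whose signal starts expansion, had a difference of -1.11 (adjusted p = 0.000471), or -0.97 after cyclic loess, where it was not called. Il7r, whose signal lowers p27, had -0.996 (adjusted p = 0.00295), or -0.79 without TLX3 replicate 1. Foxo1, a known activator of Cdkn1b, had -0.31 (adjusted p = 0.155). Id3, an inhibitor of E proteins induced by receptor signals, rose by 1.45 from a mean under the array medians (adjusted p = 0.000971).

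**Figure D4:**
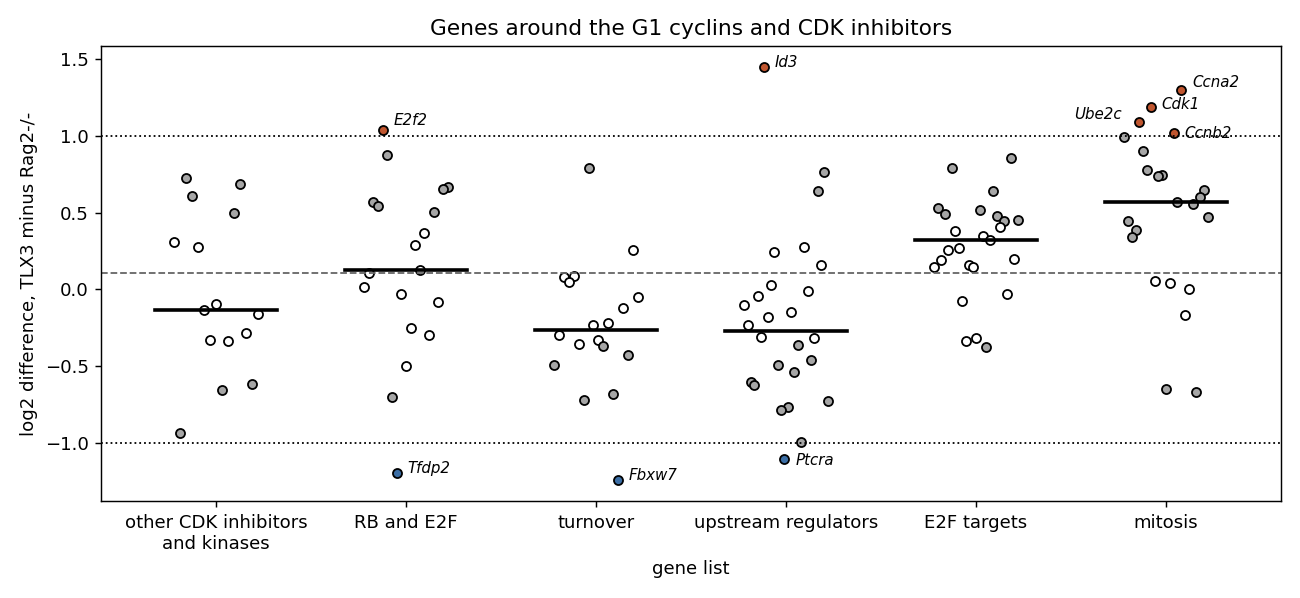
Difference of each measured gene (TLX3 minus Rag2-/-, log2 units, vertical axis) in 6 lists around the G1 cyclins. Coloured points are called higher (orange) or lower (blue) and named, grey points passed the adjusted p only, white points did not. Black lines are list medians, from -0.27 for upstream regulators to 0.57 for mitosis, the dashed line is the median of all genes, 0.11, and dotted lines mark a difference of 1.

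Downstream of the E cyclins lie genes of S phase and mitosis. Of 25 known E2F targets, none was called by limma, 9 rose and 1 fell (13 and 1 at an unadjusted p under 0.05), with a median of 0.32. Of 23 genes of G2 and mitosis, 4 were called higher and none lower, 17 rose and 2 fell (again 17 and 2 at an unadjusted p under 0.05), with a median of 0.57 against 0.11 over all genes. Ccna2, the cyclin that follows cyclin E, was at 9.13, 9.12 and 9.05 against 10.41, 10.46 and 10.32 (difference 1.30 ± 0.12, SE, adjusted p = 0.000147). Cdk1, its mitotic kinase, rose by 1.19 and Ube2c, a ubiquitin carrier of mitotic exit, by 1.09, with adjusted p of 0.000667 and 0.000547. All 3 were higher in 3 of 3 TLX3 arrays, and each was called under the normalizations and arrays left out. After cyclic loess, which brings the median of all genes from 0.11 to 0.00, the E2F targets had 16 rises and 1 call, and the mitotic list 16 rises and 6 calls. Equal array medians went the other way, with 4 rises and no call by limma among the E2F targets (3689 of 19937 genes rose in that scaling) and 13 rises and 3 calls in the mitotic list. After cyclic loess, where 16.8% of all genes rose, the members had 4 rises, Ccnd3 being the fourth (0.36, adjusted p = 0.0248). Quantile normalization again, where 18.4% of all genes rose, added Cdkn2d as the fifth (0.39, adjusted p = 0.0433). In both, Cdk6 was not called.

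Over the 6 arrays, the genes above the median level most like Ccne1 were Fbl (Pearson r = 0.999), Nabp2 (0.998) and Top1mt (0.998), and those most like Cdk6 were Tert (0.9998), Zfp644 (0.9994) and Ptprc (0.9994). These are the highest of 10756 genes over 6 points in 2 groups, so the step between the groups sets most of each value.

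Markers of other cell types moved with the groups beside all of these values, as did the T-lineage list (mean level 10.72 to 10.78 in the Rag2-/- arrays and 10.18 to 10.56 in the TLX3 arrays). Of 20 myeloid and dendritic markers, 17 were called lower, and their mean level was 8.28 to 8.49 in the Rag2-/- arrays and 5.82 to 6.02 in the TLX3 arrays, where 15 of 20 lay under the array medians. Of 15 NK markers, 10 were called lower (mean level 7.13 to 7.34 against 5.70 to 5.85), and of 15 thymic epithelial markers, 7 (8.20 to 8.72 against 6.64 to 6.89). Of 18 stromal markers, which OP9 cells could bring to the TLX3 arrays, none was called higher and 4 were called lower (mean level 6.31 to 6.54 against 5.97 to 6.03; 4 higher and 5 lower at the adjusted p alone and also at an unadjusted p under 0.05). Col1a1 was at 7.48 and 7.49 in the 2 groups. The B-cell list had no call by limma among 10 (2 higher and 3 lower at the adjusted p alone, the same at an unadjusted p under 0.05), and its mean level of 5.64 to 5.81 lay under the array medians in both groups. Of 4 erythroid markers measured, 1 was called lower. The part of these cells in the values of the cyclins and inhibitors was not tested.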

How the data were processed

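Total RNA of 6 samples was labelled with biotin and hybridised to 1-colour arrays. The authors deposited 1 log2 value for each probe set and array, computed by RMA (R 2.9.0, affy package), per the submitters' processing notes. RMA narrows large differences, and the number of arrays limits precision. The sources used here do not give a genome build. The table has 34760 probe sets. The first 6568 by number list no gene and were left out as likely controls, and 28192 were tested. Of these 21640 have 1 gene symbol in the platform annotation, 1321 several and 5231 none, and probe sets with several named no gene. All 10 symbols were found in the RefSeq table of GRCm38.p6.

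Differences were tested with limma 3.58.1 (lmFit, eBayes, two-sided) in R 4.3.3 without covariates, adjusted by Benjamini-Hochberg. The script was tested on simulated data. Promoters are RefSeq sequences of GRCm38.p6, and plots used matplotlib 3.10.9. The members and gene lists were chosen with earlier results of these data known. Named genes are all members, up to 3 called genes per list and direction, and pathway genes picked by role. Some exceptions are marked in the text. Gsk3b, Cenpe, Cenpf, Top2a, Mki67 and Col1a1 are others, named outside these rules. Replicate numbers were not taken as a pairing of the samples in the main fit. A fit with them as a block was an alternative. The others were other normalizations, filters on dim probe sets, variance models, array weights, the mean of probe sets, limma treat and leaving out each array.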

Additional observations from a re-analysis of the deposited data

How the results depend on the processing

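All alternatives were planned. Signs of the 10 members held in every alternative that gave single-gene values, except Cdkn2c, which ran from -0.0897 (without TLX3 replicate 2) to 0.46 (without TLX3 replicate 1). Ccne1 was called in 15 of 15 and Cdk6 in 10 of 15. The number of members called lower was 0 after quantile normalization again (Cdk6 at -0.92), after cyclic loess (-0.99) and with array weights (-0.85). It was 0 also at an unadjusted p under 0.05 and the minimum difference. Of all genes, 4.18%, 4.46% and 4.3% were called lower in these settings, in that order. Limma treat called 0 higher and 0 lower (0 and 0 at its unadjusted p), where it called 0.0351% of all genes higher and 0.612% lower. With 1 array left out, 1 to 2 members were called higher and 0 to 2 lower, and 2 to 3 rose and 2 to 3 fell at the adjusted p. In these fits, 1.08% to 2.16% of all genes were called higher and 4.11% to 5.8% lower. At the adjusted p, 12.8% to 23.6% of all genes rose and 13.2% to 20% fell. Cdkn1b gained the call without TLX3 replicate 2 (-1.03) or 3 (-1.001), and Cdkn2a without TLX3 replicate 2 (1.01). Quantile normalization again gave 5 rises at the adjusted p, where 18.4% of all genes rose. Ccnd2 fell with an intensity trend and robust estimation (adjusted p = 0.0394), among probe sets above the median level (0.0494, where Ccnd1 was filtered out) and without TLX3 replicate 2 (0.042).

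Deviations of same-numbered arrays correlated at -0.11, 0.06 and -0.00, within the range of differently numbered arrays (-0.15 to 0.12). They show no sign of a pairing by number, but with 3 arrays in each group they cannot settle whether samples were paired. With the replicate block, 1 member was called higher and 1 lower (1.45% and 5.08% of all genes), and 3 rose and 2 fell (21.2% and 18%). The member counts were the same without it. Array signals near the medians, as for Ccnd1 and Cdkn2a, limit what can be said of true size.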

Other observations

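The genes around the cycle in this paragraph were named after their values were seen. Cdk7, the kinase that activates other CDKs, was at 8.81, 8.76 and 8.69 in the Rag2-/- arrays and at 7.38, 8.11 and 7.98 in the TLX3 arrays. Its difference was -0.93 (adjusted p = 0.00473), or -0.71 without TLX3 replicate 1. A second probe set gave -1.30, with TLX3 replicate 1 at 5.37 against 6.46 and 6.78 in replicates 2 and 3. Ccng1, a p53-induced cyclin, fell by 0.66 on the log2 scale (adjusted p = 0.00395), and Ccndbp1, a protein that binds cyclin D1, fell by 0.62 (adjusted p = 0.00593).

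In the mitotic list, 2 genes fell, the kinetochore genes Cenpe and Cenpf, at -0.65 and -0.67 (adjusted p = 0.0289 and 0.0151). Without TLX3 replicate 1 they were at -0.41 and -0.48. Neither passed after quantile normalization again (adjusted p = 0.0963 and 0.0536), nor did Cenpe without any 1 of the Rag2-/- arrays, or Cenpf without Rag2-/- replicate 1 or 2 (adjusted p = 0.0533 and 0.0508). Top2a, the topoisomerase of dividing cells, differed by 0.39 on its brighter probe set and by -0.52 on its dimmer one. The dimmer one had means of 5.80 and 5.28, under the array medians. Mki67, the proliferation marker, differed by -0.00 (95% CI -0.37 to 0.37).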
